A study of Mus musculus with 6 samples.

Results

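The genes described here encode the proton pump, the cathepsins and other hydrolases, and the membrane proteins of the lysosome, together with 2 transcription factors known for acting on lysosomal genes. The 39 member genes were chosen by symbol in the GENCODE M21 annotation of the mouse genome build GRCm38, out of 21730 genes with at least 1 read. They had 160 annotated transcripts with a read, of 59371 in all. The rule uses gene symbols only, but members and lists were chosen with earlier results of these data known. The shares of members set against those of all genes below are therefore descriptions and no independent test. The tissue was interscapular brown adipose tissue (iBAT), a fat depot of the upper back that makes heat, and its poly(A) RNA was measured by Oxford Nanopore direct cDNA sequencing, in which long reads are taken from cDNA that was not amplified by PCR. All mice were male wild type C57BL/6N, and the age given is 20 weeks. The 3 cold mice (4, 11 and 15) lived alone at 4 °C for the last 24 h, and the 3 control mice (2, 9 and 14) lived at 22 to 24 °C. Whether control mice were also housed alone is not given in the sources used here, so single housing cannot be told apart from the cold.

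The lysosome breaks down proteins, glycans and lipids in an acid interior. The acid comes from the V-ATPase, a rotary pump whose V1 sector splits ATP in the cytosol and whose V0 sector carries protons through the membrane. Cathepsins are the proteases of this compartment, heavily glycosylated LAMP proteins line its membrane, and the MiT/TFE factors TFEB and TFE3 bind E-boxes, a short DNA motif, in front of many lysosomal genes. In brown fat the lysosome takes part in autophagy, in the turnover of mitochondria and in the hydrolysis of lipoprotein lipids that were taken up.

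The E-box is shown first, because it is the sequence feature that lysosomal genes are known to share. RefSeq promoter windows of GRCm38.p6, from 250 bases before to 50 bases after a transcription start, were found for 31 of the 39 members. Both strands were searched for CACGTG, for its extensions TCACGTGA and GTCACGTG, which overlap it, and for the related M-box TCATGTGA. CACGTG lay in the windows of 12 of the 31 members (38.7%), and in those of 8.09% of all 27025 genes with a window, or 7.15% of all 32851 windows. TCACGTGA lay in the windows of 6 members (19.4%) and in 1.12% of all genes or 0.974% of all windows. GTCACGTG lay in 7 members and in 2.55% of genes (2.25% of windows), and TCATGTGA in 2 members, Atp6v0c and Ctss, and in 1.15% of genes (0.986% of windows). The 6 members with TCACGTGA are printed 5′ to 3′ on the strand of the gene, with every CACGTG or TCACGTGA of the stretch in capitals. The RefSeq starts are not always those of the transcripts read here. The Ctsa window begins after the first exons of Ctsa-201 and Ctsa-202, which end at chr2:164833196. The Ctsd and Atp6v0e stretches lie inside the first exons of Ctsd-202 (91.3% of reads) and Atp6v0e-201 (91.8%). The TCACGTGA of Mcoln1 lies inside the first exon of Mcoln1-201 (52.8%). Outside the printed stretches, the window of Ctsa held another TCACGTGA from base 5 after the start, and that of Ctsd another CACGTG at -245. Lamp1 is added, chosen after its window was seen, because that window holds 4 copies of CACGTG, at -61, -45, -28 and -15 from the start. The stretches lie at chr16:44139354-44139421 on the minus strand (Atp6v1a), chr17:26676387-26676416 on the plus strand (Atp6v0e), chr8:105566050-105566079 on the minus strand (Atp6v0d1), chr8:3500443-3500510 on the plus strand (Mcoln1), chr7:142387889-142387956 on the minus strand (Ctsd), chr2:164833730-164833772 on the plus strand (Ctsa) and chr8:13159091-13159160 on the plus strand (Lamp1).
Atp6v1a: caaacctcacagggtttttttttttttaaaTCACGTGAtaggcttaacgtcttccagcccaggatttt
Atp6v0e: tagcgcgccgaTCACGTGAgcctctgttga
Atp6v0d1: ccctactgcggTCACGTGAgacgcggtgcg
Mcoln1: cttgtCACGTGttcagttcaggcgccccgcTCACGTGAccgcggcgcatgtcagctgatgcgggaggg
Ctsd: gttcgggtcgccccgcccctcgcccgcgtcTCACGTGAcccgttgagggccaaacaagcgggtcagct
Ctsa: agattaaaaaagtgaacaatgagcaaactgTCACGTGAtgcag
Lamp1: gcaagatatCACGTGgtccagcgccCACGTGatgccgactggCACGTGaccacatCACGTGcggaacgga

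Each mouse gave 1 library, run on 2 flow cells whose reads were summed, and 1657985 to 2238056 reads per mouse matched the annotation. Levels are given as CPM, counts scaled to a common library size after TMM (edgeR's correction for library composition), always in the order of control mice 2, 9 and 14 and cold mice 4, 11 and 15. Brown adipocyte markers summed to 28285 to 31543 CPM in the control mice and 38813 to 41107 CPM in the cold mice, led by Fabp4 and Ucp1, so markers of the labelled tissue were abundant in every library. The list did not move as a whole: in the test given below, 5 of its 10 genes rose, 1 fell and 4 did not pass. Skeletal muscle markers varied widely between libraries: their sum was 183, 477 and 701 CPM in the control mice and 324, 1381 and 3366 CPM in the cold mice. Counts of members are therefore also given without control mouse 2, the lowest of the 6, and cold mouse 15, the highest. Cold mouse 11, the next highest, stays in those counts, so the muscle difference is not fully removed. In bulk tissue, fewer cells of a type and less RNA per cell cannot be told apart.

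Cold mice had higher levels of many lysosomal genes. Of the 39 members, 35 had enough reads to be tested, and 16 rose and 2 fell in the cold by edgeR's quasi-likelihood test at an adjusted p of 0.05. The other 17 did not pass the test. Over all 8684 tested genes, 9.75% rose and 9.77% fell. The median log2 fold change of the tested members was 0.38, and that of all tested genes was 0.00. All 3 cold mice lay above all 3 control mice in 20 of the 35, and below them in 4, against 17.3% and 17.8% of all tested genes. Summed over all members, the level was 5070 to 5217 CPM in the control mice and 6071 to 6225 CPM in the cold mice. Without Ctsz and Lamp1, the largest absolute differences, it was 4549 to 4682 CPM and 4924 to 4942 CPM, so the groups still did not overlap. Without control mouse 2 and cold mouse 15, 11 members rose and 0 fell, and the calls of Atp6v1a, Atp6ap2, Ctsl, Psap, Lipa, Atp6v1g1 and Ctsb were lost. DESeq2 in place of edgeR called 9 members higher (Atp6v0a2, Atp6v0b, Atp6v0c, Atp6v1e1, Ctsf, Ctsl, Ctsz, Lamp1 and Lamp2) and 0 lower. Flow cell 2 alone, with fewer reads, called 8 higher.

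**Figure D1:**
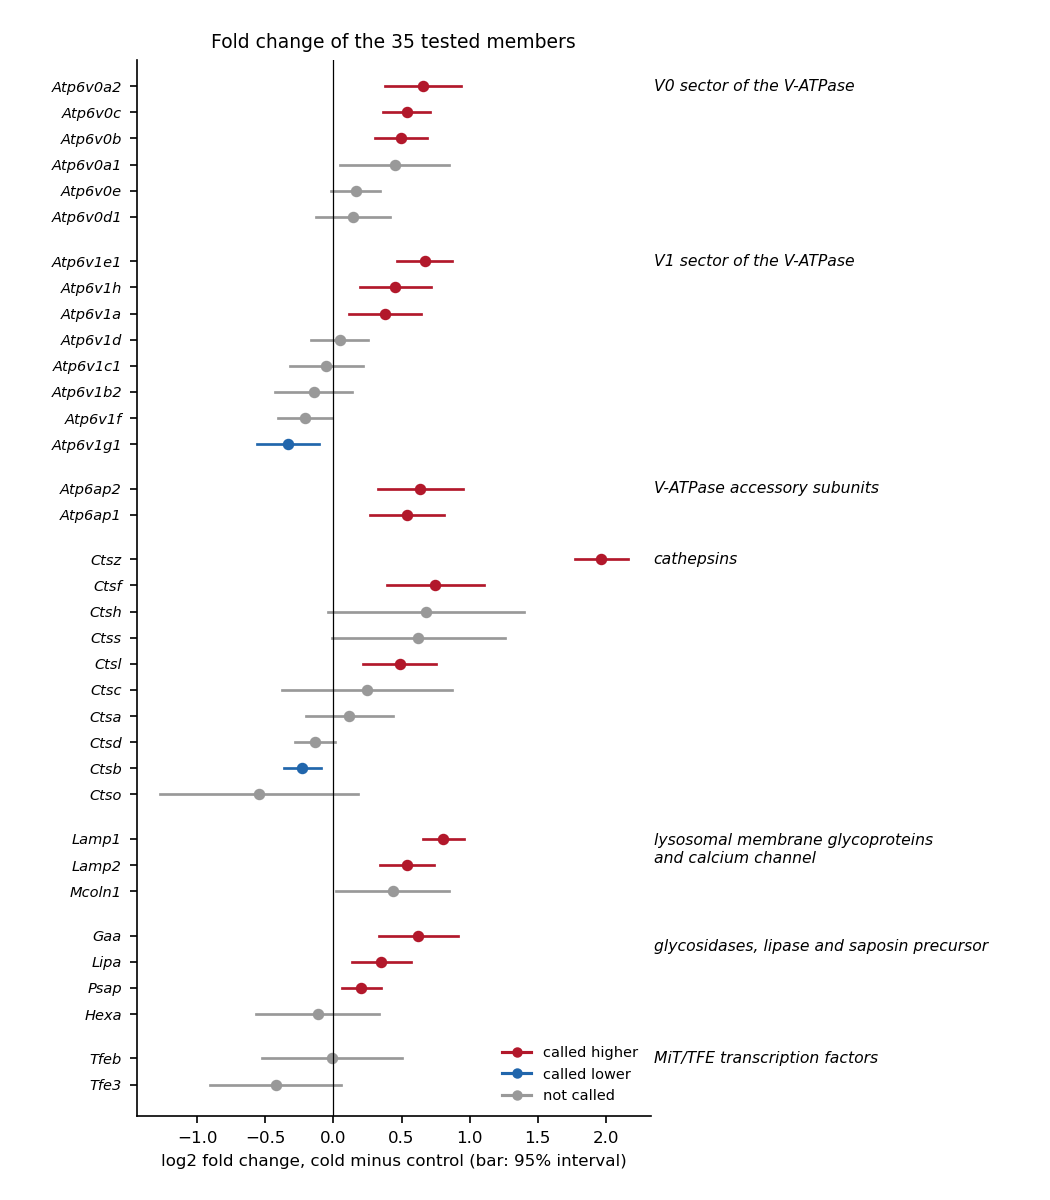
Log2 fold change, cold minus control, of the 35 tested members, grouped by role; points are edgeR estimates over 3 mice a group and bars are 95% intervals. Ctsz, at 1.97, stands to the right of every other member, the 16 red points rose, and the 2 blue points, Atp6v1g1 and Ctsb, fell.

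The proton pump rose in part. Of 16 tested V-ATPase genes 8 rose and 1 fell, with a median log2 fold change of 0.41. In the V0 sector, the proton channel in the membrane, 3 of 6 tested genes rose, none fell, and all 6 estimates were positive. Atp6v0c, the proteolipid that makes up most of the rotor ring (chr17:24163866-24169702, minus strand), was read at 186, 205 and 188 CPM in the control mice and 267, 286 and 288 CPM in the cold mice. It rose by 0.54 ± 0.08 (SE) on the log2 scale, 1.45-fold, with an adjusted p of 7.14e-05. Atp6v0b, another ring proteolipid (chr4:117884326-117887333, minus strand), had 127, 112 and 115 CPM, and 171, 158 and 170.0 CPM in the cold, a log2 fold change of 0.50 ± 0.09 (SE, adjusted p = 0.000494). For both ring genes the lowest cold mouse stood above the highest control mouse.

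Atp6v0a2, an isoform of the large a subunit that guides protons to and from the ring (chr5:124628576-124724455, plus strand), had 48.6, 38.3 and 37.2 CPM in control mice. Its cold levels were 67.6, 68.6 and 57.6 CPM, higher by 0.66 ± 0.13 on the log2 scale (SE, adjusted p = 0.00118). The groups did not overlap, with control mouse 2 highest among controls and cold mouse 15 lowest in the cold. Its sister isoform Atp6v0a1 had 18.9 to 19.1 CPM and 20.0 to 30.3 CPM and did not pass the test (log2 fold change 0.45, adjusted p = 0.108). It passed with flow cell 1 alone (log2 fold change 0.66, adjusted p = 0.0495) and without cold mouse 11 (adjusted p = 0.0376), while flow cell 2 alone gave 0.075 (adjusted p = 0.911). Atp6v0e and Atp6v0d1, a small membrane subunit and the subunit joining ring and stalk, had log2 fold changes of 0.16 and 0.14 with overlapping groups. Atp6v0d2, an isoform known from osteoclasts, had 1 read in all 6 libraries, and Atp6v0e2 had 21, too few for the test.

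The V1 sector split. Of its 8 tested genes 3 rose, 1 fell and 4 did not pass, and the median log2 fold change was -0.0030. Atp6v1e1, a subunit of the peripheral stalk (chr6:120794305-120822793, minus strand), had 151, 142 and 128 CPM in the control mice against 202, 222 and 246 CPM in the cold mice. That was a rise of 0.67 ± 0.10 on the log2 scale (SE, adjusted p = 2.95e-05), and the groups stood well apart. Atp6v1h, a regulatory subunit (chr1:5070018-5162529, plus strand), had 47.4, 49.5 and 47.0 CPM, and 60.9, 75.6 and 60.6 CPM in the cold. The log2 fold change was 0.46 ± 0.13 (SE, adjusted p = 0.0128), and cold mouse 11 was the highest. Without that mouse the adjusted p was 0.0966, and without control mouse 14 it was 0.0508. Flow cell 2 alone gave a log2 fold change of 0.26 for Atp6v1h (adjusted p = 0.530), and DESeq2 did not call it (adjusted p = 0.161).

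Atp6v1a, the catalytic subunit that splits ATP (chr16:44085402-44139705, minus strand), had 60.2, 51.5 and 68.9 CPM in the control mice and 71.0, 89.7 and 74.5 CPM in the cold mice. The groups came close, with cold mouse 4 just above control mouse 14, and the log2 fold change was 0.38 ± 0.13 (SE, adjusted p = 0.0412). This call was lost without control mouse 2 (adjusted p = 0.103), control mouse 9 (0.201) or cold mouse 11 (0.216). Atp6v1g1, which pairs with subunit E in the peripheral stalk (chr4:63544772-63550750, plus strand), went the other way. It had 122, 145 and 133 CPM in control mice and 119.8, 108 and 89.1 CPM in the cold. The level fell by 0.33 on the log2 scale (SE 0.11, adjusted p = 0.0376), with cold mouse 15 lowest and cold mouse 4 close under control mouse 2. Leaving out control mouse 9 gave an adjusted p of 0.137, control mouse 14 0.0834, cold mouse 11 0.0801 and cold mouse 15 0.188. Atp6v1b2, Atp6v1c1, Atp6v1d and Atp6v1f had log2 fold changes between -0.20 and 0.05 and did not pass. For Atp6v1f, at 161 to 169.5 CPM and 128 to 158 CPM, every cold mouse lay below every control mouse.

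Both accessory subunits rose. Atp6ap1, which takes part in assembly of V0 (chrX:74297097-74304721, plus strand), had 33.6, 33.2 and 33.5 CPM in the control mice and 48.8, 47.6 and 49.5 CPM in the cold mice. Its log2 fold change was 0.54 ± 0.13 (SE, adjusted p = 0.00536), and within each group the mice lay within 2 CPM of each other. Atp6ap2, the (pro)renin receptor, whose membrane part sits in the pump (chrX:12587801-12617049, plus strand), had 23.7, 25.5 and 27.9 CPM, and 39.6, 38.1 and 43.1 CPM in the cold. It rose by 0.64 ± 0.15 on the log2 scale (SE, adjusted p = 0.00404). Without control mouse 2 and cold mouse 15 together the adjusted p was 0.0624.

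**Figure D2:**
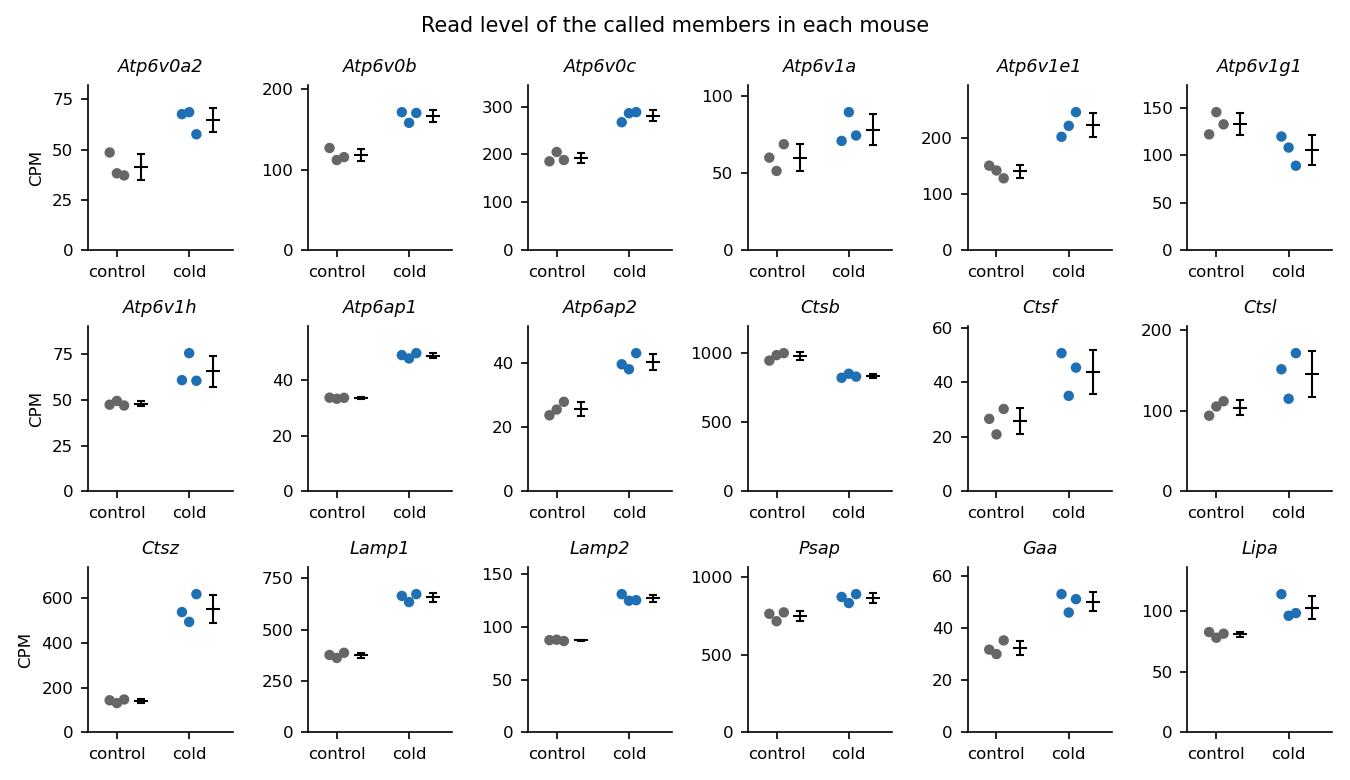
CPM of the 18 called members in each mouse (grey, control mice 2, 9 and 14; blue, cold mice 4, 11 and 15, left to right), with the group mean and SD as bars; each axis starts at 0. Ctsz runs from 131 to 147 CPM in the control mice to 493 to 617 CPM in the cold mice, and Atp6v1g1 and Ctsb are the only panels with the cold mice below.

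Among the cathepsins 1 gene stood far from the rest. Of 10 tested cathepsins 3 rose, 1 fell and 6 did not pass, with a median log2 fold change of 0.37. Ctsz, a cysteine carboxypeptidase (chr2:174427493-174439039, minus strand), had 143, 131 and 147 CPM in the control mice and 537, 493 and 617 CPM in the cold mice. It rose 3.91-fold, by 1.97 ± 0.09 on the log2 scale (SE, 95% interval 1.77 to 2.16, adjusted p = 3.05e-12). The lowest cold mouse stood more than 3-fold above the highest control mouse. Each flow cell alone gave the same size, 1.95 and 1.99 on the log2 scale. The RefSeq window of Ctsz held none of the 4 motifs.

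The other cathepsins together did not follow Ctsz. Without it, the cathepsins summed to 2010 to 2152 CPM in the control mice and 1925 to 1967 CPM in the cold mice. Most of that sum came from Ctsb and Ctsd. Ctsb, a cysteine protease (chr14:63122462-63145923, plus strand), had 942, 981 and 996 CPM, and 818, 848 and 827 CPM in the cold. It fell by 0.23 on the log2 scale (SE 0.07, adjusted p = 0.0178), with no overlap between the groups. The adjusted p was 0.0879 without control mouse 14 and 0.0771 without cold mouse 4. Ctsb shares 774 nt of exon with Fdft1, a gene of the other strand with 231 reads against 10497 for Ctsb. Ctsd, the aspartic protease of the lysosome, had 886, 967 and 950.1 CPM against 845, 905 and 801 CPM and did not pass (log2 fold change -0.14, adjusted p = 0.201). Its groups overlapped, with cold mouse 11 above control mouse 2.

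Ctsl, an endopeptidase (chr13:64359337-64370890, minus strand), had 93.7, 105 and 112 CPM in control mice and 151, 115 and 171 CPM in the cold. It rose by 0.49 ± 0.13 on the log2 scale (SE, adjusted p = 0.0113), although cold mouse 11 lay only just above control mouse 14. The call was lost without control mouse 2 (adjusted p = 0.0729), control mouse 9 (0.0625) or cold mouse 4 (0.0577). Ctsf, another cysteine protease (chr19:4855130-4860918, plus strand), had 26.6, 20.9 and 30.2 CPM, and 50.7, 35.1 and 45.4 CPM in the cold. Its log2 fold change was 0.75 ± 0.17 (SE, adjusted p = 0.00324), the groups did not overlap, and it was lost only with flow cell 2 alone (adjusted p = 0.121).

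The remaining cathepsins were read at under 10 CPM in every mouse, except Ctsa. Ctsh, an aminopeptidase, had 4.05, 5.61 and 3.26 CPM in the control mice and 7.25, 7.01 and 6.40 CPM in the cold mice (log2 fold change 0.68, adjusted p = 0.186). Ctss, a protease of antigen-presenting cells, had 4.63, 6.63 and 5.12 CPM, and 8.21, 8.02 and 9.32 CPM in the cold (log2 fold change 0.62, adjusted p = 0.171). Both had the cold mice above the control mice without passing the test. Ctso had 6.94, 5.10 and 9.77 CPM, and 3.86, 5.01 and 6.40 CPM in the cold (log2 fold change -0.55, adjusted p = 0.312), with overlap. Ctsc, which activates serine proteases of immune cells, had 5.10 to 8.10 CPM and 7.73 to 8.15 CPM. Ctsk, the collagen-cleaving cathepsin of osteoclasts, had 35 reads in all and was not tested. Ctsa, a carboxypeptidase that also protects beta-galactosidase, had 33.7 to 37.2 CPM and 33.6 to 46.6 CPM. Its value is uncertain, since it overlaps Pltp and Neurl2 on the opposite strand and the use of strand in counting is not given in the sources used here.

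Macrophages are rich in cathepsins, so their markers are given beside these genes. The 20 macrophage markers summed to 85.6 to 125 CPM in the control mice and 128 to 153 CPM in the cold mice. Only 7 of the 20 had enough reads for the test, of which all 7 estimates were positive, at a median of 0.29, and 0 passed. Lyz2 and C1qa, the markers with the most reads, had means of 31.4 and 15.2 CPM in the control mice and 38.1 and 18.5 CPM in the cold mice. Among markers with too few reads for the test, chosen after their values were seen, the groups did not overlap in Gpnmb, at 0 in all control mice and with 8 reads in the cold mice, nor, in the other direction, in Laptm5, at means of 5.97 and 3.27 CPM. The part of macrophages in the cathepsin values was not tested.

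Both lysosome-associated membrane glycoproteins rose. Lamp1 (chr8:13159161-13175338, plus strand) had 377, 363 and 388 CPM in the control mice and 665, 635 and 674 CPM in the cold mice. It rose 1.75-fold, by 0.81 ± 0.07 on the log2 scale (SE, adjusted p = 4.33e-08), and within each group the mice were close together. Its last part overlaps Grtp1 on the opposite strand by 177 nt of exon, with 255 reads for Grtp1 against 5999 for Lamp1. Lamp2, a splice form of which is also the receptor of chaperone-mediated autophagy (chrX:38401357-38456454, minus strand), had 87.4, 87.8 and 86.5 CPM, and 131, 125 and 125 CPM in the cold. The log2 fold change was 0.54 ± 0.10 (SE, adjusted p = 0.000273), again with tight groups, and it was lost only with flow cell 2 alone (adjusted p = 0.113). Mcoln1, the lysosomal calcium channel TRPML1, had 12.8 to 16.2 CPM and 19.5 to 19.8 CPM. Every cold mouse lay above every control mouse, but the gene did not pass the test (log2 fold change 0.43, adjusted p = 0.141).

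Of 4 tested genes for glycosidases, lipase and saposins 3 rose. Gaa, the acid alpha-glucosidase that degrades glycogen in the lysosome (chr11:119267887-119285454, plus strand), had 31.8, 30.1 and 35.4 CPM in the control mice and 53.1, 46.1 and 51.2 CPM in the cold mice. It rose by 0.62 ± 0.14 on the log2 scale (SE, adjusted p = 0.00237), with a clear gap between the groups. Lipa, the acid lipase that hydrolyses cholesteryl esters and triglycerides (chr19:34492318-34527474, minus strand), had 82.7, 78.1 and 81.4 CPM, and 114, 96.2 and 98.4 CPM in the cold. Its log2 fold change was 0.35 ± 0.10 (SE, adjusted p = 0.0209), with cold mouse 4 highest. Without cold mouse 4 the adjusted p was 0.134, without control mouse 9 it was 0.0732 and without control mouse 14 it was 0.0619.

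Psap, the precursor of the saposins that present sphingolipids to their hydrolases (chr10:60277627-60302597, plus strand), was among the most abundant members. It had 764, 716 and 773 CPM in control mice and 873, 834 and 891 CPM in the cold. The rise of 0.20 ± 0.07 on the log2 scale (SE, adjusted p = 0.0401) was the smallest among the 16, and the groups did not overlap. It was the least stable call: it was lost in 10 of 13 alternative analyses, including the omission of any of the mice except cold mouse 11, with adjusted p-values of 0.085 (without control mouse 2), 0.167 (control mouse 9), 0.0939 (control mouse 14), 0.121 (cold mouse 4) and 0.0864 (cold mouse 15). Hexa, a subunit of beta-hexosaminidase, had 14.8 to 22.0 CPM and 14.0 to 20.4 CPM. Glb1, the beta-galactosidase, had 42 reads in all and was not tested.

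The MiT/TFE factors did not pass the test. Tfeb had 17.9, 11.7 and 11.2 CPM in the control mice and 10.6, 15.0 and 14.6 CPM in the cold mice, with overlapping groups (log2 fold change -0.01, 95% interval -0.52 to 0.51, adjusted p = 0.984). Tfe3 had 16.2, 15.3 and 12.1 CPM, and 10.6, 10.5 and 11.1 CPM in the cold. Every cold mouse lay below every control mouse, at a log2 fold change of -0.42 with a 95% interval from -0.91 to 0.06 (adjusted p = 0.227). These factors are known to be controlled by phosphorylation and movement into the nucleus, which RNA levels do not measure.

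Members with an E-box were found among genes that rose and genes that did not pass. CACGTG lay in the window of 6 of the 14 risen members with a window, of 5 of the 14 members that did not pass, and of 1 of the 3 untested ones. Neither member that fell has a window in the table. The risen members with CACGTG were Atp6v1a, Atp6v0b, Ctsl, Ctsf, Gaa and Lamp1. TCACGTGA lay in the windows of 1 risen member, Atp6v1a, and of 5 that did not pass. Those 5 are Atp6v0e, Atp6v0d1, Mcoln1, Ctsd and Ctsa, whose log2 fold changes were 0.16, 0.14, 0.43, -0.14 and 0.12. These are descriptions of letters in the windows, with no measurement of binding.

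The order of levels among members was read per kb of each gene's most-read transcript, and it depends on that division, which may not be due where 1 long read stands for 1 molecule. In control mice Ctsd was highest, at a mean of 439 CPM per kb, followed by Atp6v0e at 309.7, Psap at 283, Atp6v1f at 234 and Ctsb at 205 CPM per kb. Ctsz had 97.4 CPM per kb there. In the cold it had 381 CPM per kb, next to Ctsd at 399.8 CPM per kb and above Atp6v0e at 347 and Psap at 326 CPM per kb. Lamp1 went from 169 to 295 CPM per kb. Without the division, mean levels in the control mice were 973 CPM for Ctsb, 934 for Ctsd, 751 for Psap, 376 for Lamp1 and 255 for Atp6v0e, and the cold mean of Ctsz, 549 CPM, lay below those of Psap (866), Ctsd (850.5), Ctsb (831) and Lamp1 (658). Within the ring of the pump, Atp6v0c had 163 and 237 CPM per kb and Atp6v0b 118 and 166 CPM per kb in control and cold mice. Of the a subunits, Atp6v0a2 had 7.74 and 12.1 CPM per kb and Atp6v0a1 4.74 and 6.52 CPM per kb.

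Long reads also separated transcripts of the same gene. Of 160 member transcripts with a read, 56 from 33 genes could be tested. By the same edgeR test 18 rose, in 15 genes, and 2 fell, against 8.33% and 7.95% of all 11699 tested transcripts. The 2 that fell were Ctsb-201 and Atp6v1g1-201, which held 99.9% and 100% of the reads of their genes. Among the 18 were the most-read transcripts of Atp6v0a2, Atp6v0b, Atp6v0c, Atp6v1a, Atp6v1e1, Atp6v1h, Atp6ap1, Atp6ap2, Ctsz and Lamp1, each with 75.8% to 100% of its gene's reads, which rose by 0.41 (Atp6v1a-202) to 1.96 (Ctsz-201) on the log2 scale. Not all of these calls were equally firm. That of Atp6v1a-202 was lost in 8 of 11 alternatives. That of Atp6v1h-201 was lost in 6 of 11, among them flow cell 2 alone (adjusted p = 0.619). In 18 member genes with at least 2 tested transcripts, edgeR's diffSpliceDGE called a change in transcript usage in 0, against 0.195% of the 2568 genes tested. The lowest unadjusted p was 0.139, for Psap, and 0 of the 18 were under 0.05 without adjustment. Without control mouse 9, 11 member transcripts rose, with flow cell 2 alone 9, and without control mouse 2 and cold mouse 15 together 12. Transcript CPM rest on their own scaling and differ slightly from those of the genes.

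Lamp2 has alternative last exons that encode different membrane tails. Lamp2-201, which ends in the exon at chrX:38405062-38405571, had 37.0, 36.4 and 35.0 CPM in the control mice and 60.7, 57.9 and 57.0 CPM in the cold mice. Lamp2-202, which ends in the exon at chrX:38419507-38421851, had 51.3, 51.1 and 49.8 CPM, and 67.1, 63.1 and 69.6 CPM in the cold. Both rose without overlap, by 0.70 ± 0.14 (SE, adjusted p = 0.000453) and 0.39 ± 0.13 (SE, adjusted p = 0.031) on the log2 scale. The call of Lamp2-201 was lost only with flow cell 2 alone (adjusted p = 0.0515). The call of Lamp2-202 was lost in 8 of 11 alternatives, among them the omission of any of the mice except cold mouse 11 (adjusted p between 0.0652 and 0.105). Lamp2-201 held 40.1% of the gene's reads in the control mice and 45.0% in the cold mice, a difference that the usage test did not call (unadjusted p = 0.391).

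Ctsl-201 and Ctsl-205 carry the same 1002 coding nt, and Ctsl-205 has 4197 nt more, most of it in a longer last exon. Ctsl-201 had 48.3, 40.6 and 47.4 CPM in the control mice and 74.5, 56.4 and 93.6 CPM in the cold mice, and rose by 0.71 ± 0.16 on the log2 scale (SE, adjusted p = 0.00218). Ctsl-205 had 48.3, 67.5 and 65.7 CPM, and 79.0, 60.5 and 82.2 CPM in the cold, with overlap (log2 fold change 0.28, adjusted p = 0.202). The difference between Ctsl-201 and Ctsl-205 was not called by the usage test (unadjusted p = 0.217). All bases of Ctsl-201 also lie in Ctsl-205. Reads that do not reach the added bases cannot tell the 2 apart, so the split of Ctsl reads and the contrast between these transcripts are uncertain. Ctsf was read both as the coding Ctsf-201 and as Ctsf-211, annotated as retaining an intron, which held 44.0% of the reads. Both rose, by 0.63 ± 0.22 (SE, adjusted p = 0.0474) and 0.90 ± 0.25 (SE, adjusted p = 0.0142) on the log2 scale. Both calls were lost without control mouse 9 (adjusted p = 0.203 and 0.111) or cold mouse 4 (0.125 and 0.168). That of Ctsf-201 was also lost without control mouse 2 (0.115) or cold mouse 15 (0.179). Ctsf-201 and Ctsf-211 differ by 98 and 211 nt, mainly at their first exons. Reads that do not reach that part cannot tell them apart, so the split of Ctsf reads is uncertain.

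Psap reads were spread over 5 coding transcripts. Psap-203 has another first exon and differs from Psap-201 by 71 and 161 nt, while the others differ from each other by few bases. Psap-202 had 144, 170.3 and 215 CPM in the control mice and 230.0, 251 and 256 CPM in the cold mice, and it alone of the 5 rose, by 0.47 ± 0.11 on the log2 scale (SE, adjusted p = 0.00599). Psap-205 had 222 to 226 CPM in the control mice and 220.2 to 229 CPM in the cold mice. Psap-201 and Psap-202 differ by 9 and 1 nt, and Psap-202 and Psap-205 by 1 and 12 nt. The split of reads among them is therefore uncertain, and so is the contrast between Psap-202 and Psap-205. Both main transcripts of Gaa, Gaa-201 and Gaa-203, which differ by 270 nt outside the coding sequence, rose, by 0.80 and 0.57 on the log2 scale (adjusted p = 0.0262 and 0.0214). Both calls were lost without control mouse 2 (adjusted p = 0.0668 and 0.0618), control mouse 9 (0.154 and 0.0811) or cold mouse 4 (0.115 and 0.0808), and that of Gaa-203 without cold mouse 15 (0.0652). All bases of Gaa-201 also lie in Gaa-203, which differs at the first exon, so the split of Gaa reads is uncertain too.

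**Figure D3:**
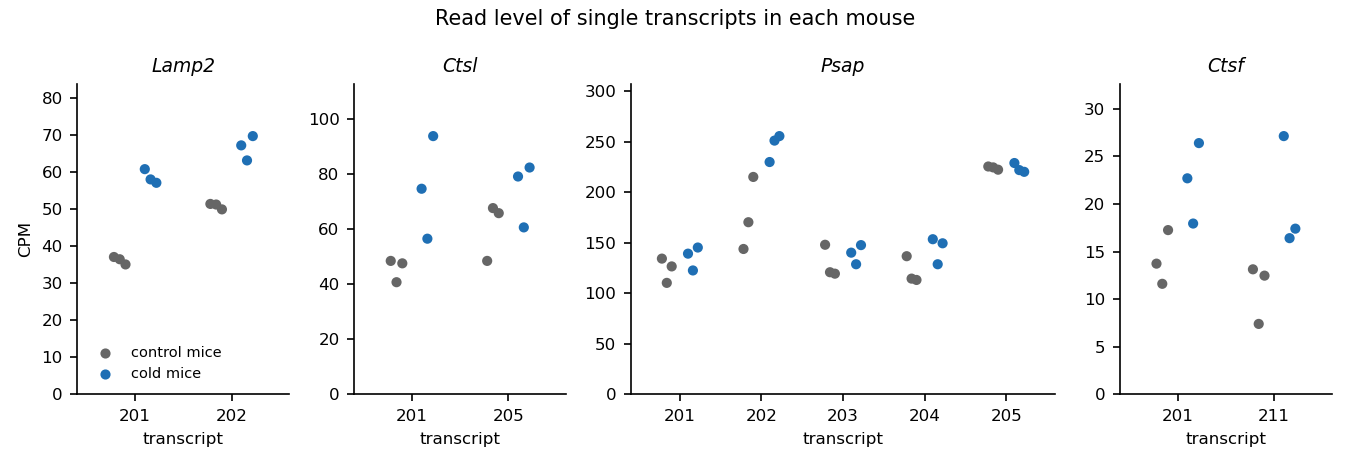
CPM of single transcripts of Lamp2, Ctsl, Psap and Ctsf in each mouse (grey, control; blue, cold), with each axis starting at 0. Both Lamp2 transcripts lie higher in all 3 cold mice, while Psap-205 lies at 220.2 to 229 CPM in the cold mice against 222 to 226 CPM in the control mice. The split of reads among the transcripts of Psap, of Ctsl and of Ctsf is uncertain.

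Of 133 further genes in 7 lists, 128 had a read and 108 were tested, of which 16 rose (14.8%) and 8 fell (7.41%), at a median log2 fold change of 0.12. Over all 8684 tested genes 9.75% rose and 9.77% fell, so these shares were near those of all genes. Without control mouse 2 and cold mouse 15 the counts were 11 and 4. Lysosomal membrane proteins and transporters held 6 risen genes (33.3%) and 1 fallen (5.56%) of 18 tested. Scarb2, the LIMP-2 protein that delivers glucocerebrosidase, had 93.2, 76.0 and 79.6 CPM in the control mice and 162, 158 and 166 CPM in the cold mice (log2 fold change 0.97, adjusted p = 3.38e-07). Npc2, which hands cholesterol to NPC1 inside the lysosome, had 307, 342 and 304 CPM, and 186, 198 and 171 CPM in the cold, and fell by 0.78 on the log2 scale (adjusted p = 1.11e-06). Neither had overlapping groups. Tpcn2, a cation channel, and Slc36a1, an amino acid transporter, had under 13 CPM in every mouse and rose by 1.07 and 1.25 on the log2 scale (adjusted p = 0.0213 and 0.0189). Neither call held without control mouse 9 (adjusted p = 0.068 and 0.0555) or control mouse 14 (0.129 and 0.0773). That of Tpcn2 was also lost without cold mouse 11 (0.0912) and that of Slc36a1 without cold mouse 15 (0.144).

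Among further glycosidases, sulfatases and lipid hydrolases 4 of 29 tested genes rose (13.8%) and 1 fell (3.45%). Grn, the progranulin precursor, had 51.0 to 79.8 CPM in the control mice and 109 to 119.9 CPM in the cold mice, and rose by 0.79 on the log2 scale (adjusted p = 0.000126). Smpd1, the acid sphingomyelinase, rose by 0.39 (adjusted p = 0.0324), a call lost in 8 of 13 alternatives. These were without control mouse 9 (adjusted p = 0.179), control mouse 14 (0.0565), cold mouse 4 (0.124) or cold mouse 15 (0.0695), among others. Gm2a, the activator of ganglioside breakdown, had 70.3 to 76.5 CPM and 44.8 to 58.1 CPM, and fell by 0.56 on the log2 scale (adjusted p = 0.00234). The call of Gm2a was lost only with DESeq2 (adjusted p = 0.0518). Of 7 tested proteases and cathepsin inhibitors 1 rose, the asparaginyl endopeptidase Lgmn, which processes cathepsins, from 24.9 to 33.5 CPM to 44.1 to 49.8 CPM (log2 fold change 0.69, adjusted p = 0.00199). None of the 7 tested V-ATPase subunits and assembly factors outside the members passed edgeR's test, and the largest difference was that of Rogdi (log2 fold change -0.45, adjusted p = 0.176).

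Of 12 tested genes that tag and sort enzymes for the lysosome, 1 rose (8.33%) and 2 fell (16.7%), close to the shares of all tested genes. The phosphotransferase that makes the mannose 6-phosphate tag is built from products of Gnptab and Gnptg. Gnptab had 15.6, 22.5 and 22.8 CPM in the control mice and 6.28, 9.02 and 5.82 CPM in the cold mice, and fell by 1.52 on the log2 scale (SE 0.25, adjusted p = 0.000154). Gnptg went from 22.0 to 28.8 CPM to 35.5 to 44.9 CPM and rose by 0.58 (adjusted p = 0.0121), a call lost without control mouse 2 (0.0676) or cold mouse 4 (0.083). It was also lost with DESeq2 (0.165), with flow cell 2 alone (0.342) and without control mouse 2 and cold mouse 15 together (0.0589). Gga2, an adaptor for the mannose 6-phosphate receptors, fell by 0.81 (adjusted p = 0.00837). Its call was lost with DESeq2 (0.184), flow cell 1 alone (0.100) and without control mouse 2 and cold mouse 15 (0.0712).

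Around the Rag GTPases and mTORC1, which recruit TFEB to the lysosome and phosphorylate it, 2 of 17 tested genes rose (11.8%) and 3 fell (17.6%), beside 9.75% and 9.77% of all tested genes. Flcn, the folliculin that acts on RagC, had 43.9 to 57.2 CPM in the control mice and 66.4 to 75.4 CPM in the cold mice (log2 fold change 0.48, adjusted p = 0.00887). Rragc itself had 76.5 to 111 CPM and 123 to 138 CPM (log2 fold change 0.43, adjusted p = 0.0112). Without control mouse 9 the adjusted p was 0.0658 for Flcn and 0.0833 for Rragc, and without cold mouse 11 it was 0.06 for Rragc. DESeq2 called neither gene (adjusted p = 0.115 and 0.0734). Flcn was also lost with flow cell 1 alone (0.0558). With flow cell 2 alone the log2 fold change of Rragc was 0.18 (adjusted p = 0.419). The Ragulator subunits Lamtor2 and Lamtor4 fell by 0.46 and 0.43 on the log2 scale (adjusted p = 0.00164 and 0.00787). The call of Lamtor4 was lost with DESeq2 (adjusted p = 0.146), flow cell 1 alone (0.0739) and without control mouse 2 and cold mouse 15 (0.0909). In the list on lysosome positioning and fusion, 2 of 18 tested genes rose (11.1%) and 1 fell (5.56%), again about the share of all tested genes. Arl8b, the GTPase that links lysosomes to kinesin, had 53.1 to 67.7 CPM and 85.5 to 104 CPM (log2 fold change 0.60, adjusted p = 0.000854). Plekhm2, its kinesin adaptor, rose by 0.93 (adjusted p = 0.0147), a call lost without control mouse 2 (0.0642) or cold mouse 4 (0.0602). It was also lost with DESeq2 (0.233), with flow cell 1 alone (0.0969) and without control mouse 2 and cold mouse 15 together (0.111). Bloc1s1, a subunit of BORC, fell by 0.28 (adjusted p = 0.0449), and the call was lost in 11 of 13 alternatives, including the omission of any of the 6 mice (adjusted p between 0.0522 and 0.183).

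**Figure D4:**
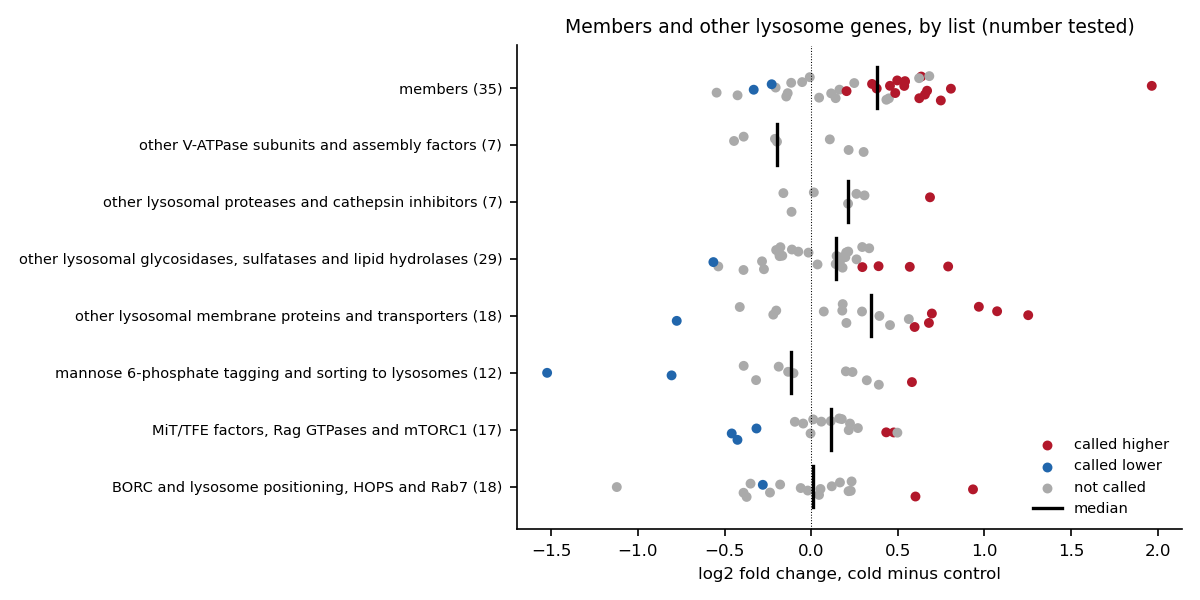
Log2 fold change, cold minus control, of each tested gene in the members and in 7 further lists of lysosome genes, with the number tested in brackets and the list median as a bar. The members have a median of 0.38, the membrane proteins and transporters 0.34, and the other lists lie between -0.20 and 0.21.

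Levels of other cell types are given for the libraries as a whole. Skeletal muscle markers, led by Acta1 and Myl1, had positive estimates in all 11 tested genes, at a median of 2.18, and 0 passed edgeR's test. Cold mouse 4 lay below control mice 9 and 14 in their sum. Endothelial markers, led by Kdr and Cdh5, summed to 299.7 to 310.1 CPM in the control mice and 356 to 359 CPM in the cold mice, and 2 of 8 tested rose and 1 fell. Fibroblast and preadipocyte markers, led by Dcn and Col3a1, summed to 265 to 316 CPM and 221 to 284 CPM, and 3 of 6 tested fell. The 9 genes of the lymphocyte list, led by Ptprc, which other leukocytes express too, and Cd79a, summed to 5.10 to 7.44 CPM and 2.00 to 2.90 CPM. None had enough reads for the test. The part of these cell types in the lysosomal values was not tested.

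**Figure D5:**
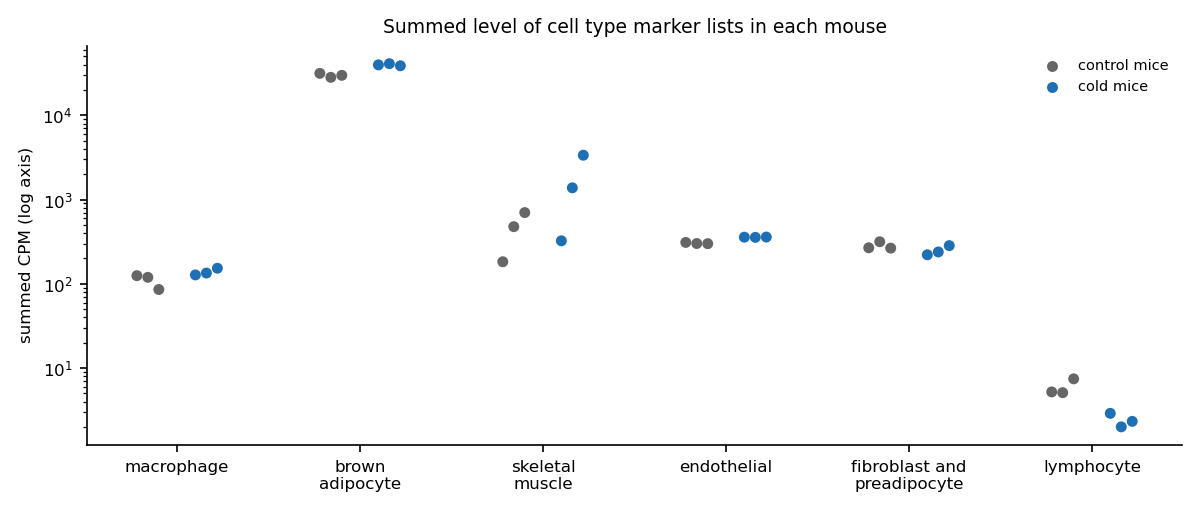
Summed CPM of 6 lists of cell type markers in each mouse (grey, control; blue, cold) on a log axis. Brown adipocyte markers lie at 28285 CPM or more in every mouse, macrophage markers between 85.6 and 153 CPM, and skeletal muscle markers spread from 183 to 3366 CPM.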

How the data were processed

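The deposited tables hold raw counts of reads per transcript, made by the authors. The tool minimap2 and the build GRCm38 are named, per the submitters' processing notes, with no role or version. The labels' protocols describe poly(A) selection and direct cDNA libraries from 100 ng, and name another fat depot at one extraction step, while the tissue fields name iBAT. How reads fitting several transcripts, strand and read filters were handled, and which annotation was used, is not given in the sources used here.

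Transcript identifiers were matched to GENCODE M21 (59371 of 59543 with a read), and 172 unmatched ones, holding 0.0836% of reads, were left out. Counts were summed over 2 flow cells and over the transcripts of a gene. Genes and transcripts were tested over 6 mice with edgeR 4.0.16 in R 4.3.3 (glmQLFit with robust estimation and glmQLFTest, TMM, filterByExpr), with Benjamini-Hochberg adjustment over all tested genes or transcripts, and the usage of transcripts with diffSpliceDGE. A gene or transcript was called at an adjusted p under 0.05. Errors are standard errors of the log2 fold change. The script was tested on simulated data. Alternatives were DESeq2 1.42.0, RLE scaling, no filter, no mitochondrial genes, each flow cell alone, leaving out each mouse, and leaving out control mouse 2 and cold mouse 15 together. Exon overlaps and shared sequence were found with GENCODE M21 and minimap2 2.31. Promoter windows are RefSeq's.

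Members and lists were chosen with earlier results of these data known. Members were described mouse by mouse if called, if changed by at least 0.5 on the log2 scale, or if MiT/TFE factors. Of other lists, up to 4 called genes by size with a mean of at least 5 CPM were named, or the largest change where none was called. Of each marker list the 2 genes with most reads were named, and of transcripts the called ones and every Lamp2 transcript with at least 5 percent of its reads. Single genes that this rule names are in part not reported here.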

Additional observations from a re-analysis of the deposited data

How the results depend on the processing

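No paired analysis was possible because the mouse numbers differ between the groups. Of the 18 called members, 6 (Atp6v0a2, Atp6v0b, Atp6v0c, Atp6v1e1, Ctsz and Lamp1) were called in all 13 alternatives, and 0 of the 18 changed sign in any. The 16 risen members became 9 with DESeq2 and 8 with flow cell 2 alone, and leaving out 1 mouse gave 12 to 15. The 2 fallen members became 0 with DESeq2, with flow cell 1 alone and without control mouse 2 and cold mouse 15, and 0 to 2 leaving out 1 mouse. Of transcripts, 18 risen became 9 with flow cell 2 alone and 11 to 16 leaving out 1 mouse. The 2 fallen became 0 without the filter and with flow cell 1 alone, 1 without control mouse 2 and cold mouse 15, and 0 to 2 leaving out 1 mouse. Of other lysosome genes, 16 risen became 8 with DESeq2, 10 with flow cell 1, 9 with flow cell 2 and 10 to 14 leaving out 1 mouse. The 8 fallen became 3 with DESeq2, 5 with flow cell 2, 4 without control mouse 2 and cold mouse 15, and 6 to 7 leaving out 1 mouse. Transcript usage was called in 0 member genes throughout. Uncalled members near 0 changed sign. Without control mouse 2 and cold mouse 15 the log2 fold change was 0.011 for Atp6v1b2, -0.051 for Ctsa and 0.16 for Tfeb. With flow cell 1 alone it was 0.0042 for Atp6v1c1, -0.046 for Atp6v1d and 0.078 for Tfeb. Leaving out 1 mouse gave ranges of -0.103 to 0.049 for Atp6v1c1, -0.0043 to 0.088 for Atp6v1d, -0.034 to 0.204 for Ctsa, -0.260 to 0.030 for Hexa and -0.143 to 0.220 for Tfeb. The median shift of the log2 fold change over all genes was 0.0012 with RLE scaling and 0.013 with DESeq2. It was largest in size with flow cell 2 alone, at -0.018. The cause of these changes was not tested, except that a single flow cell or fewer mice hold fewer reads or samples.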
